A study of Mus musculus with 2 samples.

Results

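The S100 genes described here are the 10 members *S100a3*, *S100a4*, *S100a6*, *S100a8*, *S100a9*, *S100a10*, *S100a11*, *S100a13*, *S100a14* and *S100a16*, chosen by their symbols from the 33696 genes listed for both libraries. Single-cell RNA was measured in cells of the middle phalanx (P2) of ICR mice, an outbred stock, whose hindlimb digits 2 and 4 had been amputated at postnatal day 3. At postnatal day 7 a bead soaked in FGF8 (500 ng/µl) or, as the control, in 0.1% BSA in PBS was placed in the wound, and at postnatal day 8, 24 h later, the tissue distal to the stump was collected. Each treatment is 1 library, pooled from 20 digits of 5 male and female mice, so the libraries differ in animals and capture as well as in treatment, and these cannot be told apart. The epithelium around the digits had been removed before dissociation, which limits what the epithelial cells below stand for. With 1 library per treatment no test was made, and every interval below is a 95% interval that covers counting error only.

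S100 proteins are small calcium-binding proteins with EF-hand motifs that mostly work as dimers and change the activity of the proteins they bind. S100A8 and S100A9 pair to form calprotectin, which fills the cytosol of neutrophils and is released at sites of inflammation. S100A4 binds the heavy chain of nonmuscle myosin and is much used as a marker of fibroblasts, S100A6 binds the calcyclin-binding protein, and S100A10 and S100A11 bind annexins. S100A13 takes part in the release of FGF1 from cells, S100A14 and S100A16 are found mostly in epithelia, and S100A3 is a protein of the hair cuticle.

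All 10 members lie on mouse chromosome 3 in 2 blocks (GRCm39, GENCODE vM39). The first block spans 187 kb from 90416091 to 90603071 and holds 8 members in the order *S100a13*, *S100a14*, *S100a16*, *S100a3*, *S100a4*, *S100a6*, *S100a8* and *S100a9*. The second begins 2.81 Mb further on and holds *S100a11* and *S100a10* within 60.1 kb. *S100a9* (90599931–90603071) is the only member on the minus strand. *S100a13* (90416091–90431912) overlaps *S100a1* on the opposite strand, and *S100a3* (90491966–90510009) overlaps *S100a2* on its own strand, so reads in the shared stretches can be assigned to either gene only by the counting rules.

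The 250 bases before the start sites of *S100a3*, *S100a8* and *S100a9* are shown because these were the 3 members at least 2-fold higher with FGF8 in fibroblast-like cells. They are RefSeq promoter sequences from a GRCm38.p6 table, which held 8 of the 10 members, and each was found once on chromosome 3 of GRCm39, where it lies at chr3:90507271-90507520 (plus strand), chr3:90576128-90576377 (plus strand) and chr3:90603029-90603278 (minus strand). Capitals mark a match, on either strand, to the TATA box TATAAA, to TTGCNNAA, the letters of a C/EBP site, or to TGANTCA, the letters of an AP-1 site.
S100a3: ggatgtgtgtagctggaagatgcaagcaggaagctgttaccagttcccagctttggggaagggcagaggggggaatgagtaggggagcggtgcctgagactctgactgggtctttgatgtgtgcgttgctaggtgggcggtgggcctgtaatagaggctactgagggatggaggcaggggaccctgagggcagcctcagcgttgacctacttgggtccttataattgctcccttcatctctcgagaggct
S100a8: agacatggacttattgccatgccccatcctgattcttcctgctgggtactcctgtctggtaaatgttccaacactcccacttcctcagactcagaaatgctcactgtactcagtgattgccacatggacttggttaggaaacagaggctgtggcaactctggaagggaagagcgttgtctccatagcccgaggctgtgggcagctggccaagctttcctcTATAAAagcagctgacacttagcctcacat
S100a9: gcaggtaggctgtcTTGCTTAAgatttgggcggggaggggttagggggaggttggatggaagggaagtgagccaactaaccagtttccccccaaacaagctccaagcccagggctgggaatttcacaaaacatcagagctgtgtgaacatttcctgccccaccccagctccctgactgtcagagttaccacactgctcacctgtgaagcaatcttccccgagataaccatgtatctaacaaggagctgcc
The *S100a8* window held TATAAA 30 bases before its start, and the *S100a9* window held TTGCTTAA 236 bases before its start. The *S100a8* start of RefSeq lies 93 bases from the canonical start of GENCODE, while that of *S100a3* lies 1 base from it. The *S100a3* window held none of these letters, although the window of an upstream start of the same gene held TATAAA. Among 32851 promoters of the same length, 12.4% held TATAAA, 9.56% TTGCNNAA and 6.75% TGANTCA. Of the other members in the table, *S100a4* held TATAAA 31 bases before its start and *S100a11* held TGAGTCA at 136 and at 38 bases before its start, while *S100a16* held TGAATCA 192 bases before 1 of its starts. A match in these letters is a description of the sequence and not a binding site.

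The FGF8 library held 7249 barcodes and 124889213 UMIs (unique molecular identifiers, which count each captured transcript once), and the BSA library 3703 barcodes and 67739460 UMIs. The filters on genes and mitochondrial share kept 6715 and 3252 cells, with medians of 12251 and 15377 UMIs, and 4 of the kept barcodes occurred in both libraries. Cells with a UMI of *Xist* or of Y-linked genes could be called by sex, and female cells made up 24.6% of those called with FGF8 but 79.3% with BSA, so ratios within each sex are given beside several of the results. Cells fell into 12 types named from marker lists ("X-like") or by leading genes, and no S100 gene was used to form them. The 3328 FGF8 and 1715 BSA fibroblast-like cells were the largest group. Macrophage-like (888 and 470), erythroid-like (612 and 82) and neutrophil-like cells (531 and 157) followed. The macrophage-like cells had the macrophage marker *C1qa* in 39.2% and 42.1% of cells and the monocyte marker *Ccr2* in 51.7% and 50.6%. This type may therefore also hold monocytes. A finer clustering at resolution 0.2 set apart 240 cells with *Ptprcap*, *Il7r* and *Ltb* among their leading genes, most of them macrophage-like here. The mast and lymphoid marker lists were the highest in them, so the macrophage-like type may hold lymphoid cells too. The neutrophil-like cells had the receptor gene *Csf3r* in 88.5% and 93.0% of cells, but the defining marker *Ly6g* only at 3.75 and 3.47 counts per 1000000 UMIs of the type (CPM) and no UMI of *Elane*. The matrix cells of hair or nail were few (33 and 21), and a further epithelial cluster of 71 and 41 cells is called by its leading genes *Prr9* and *Krt73*.

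**Figure D1:**
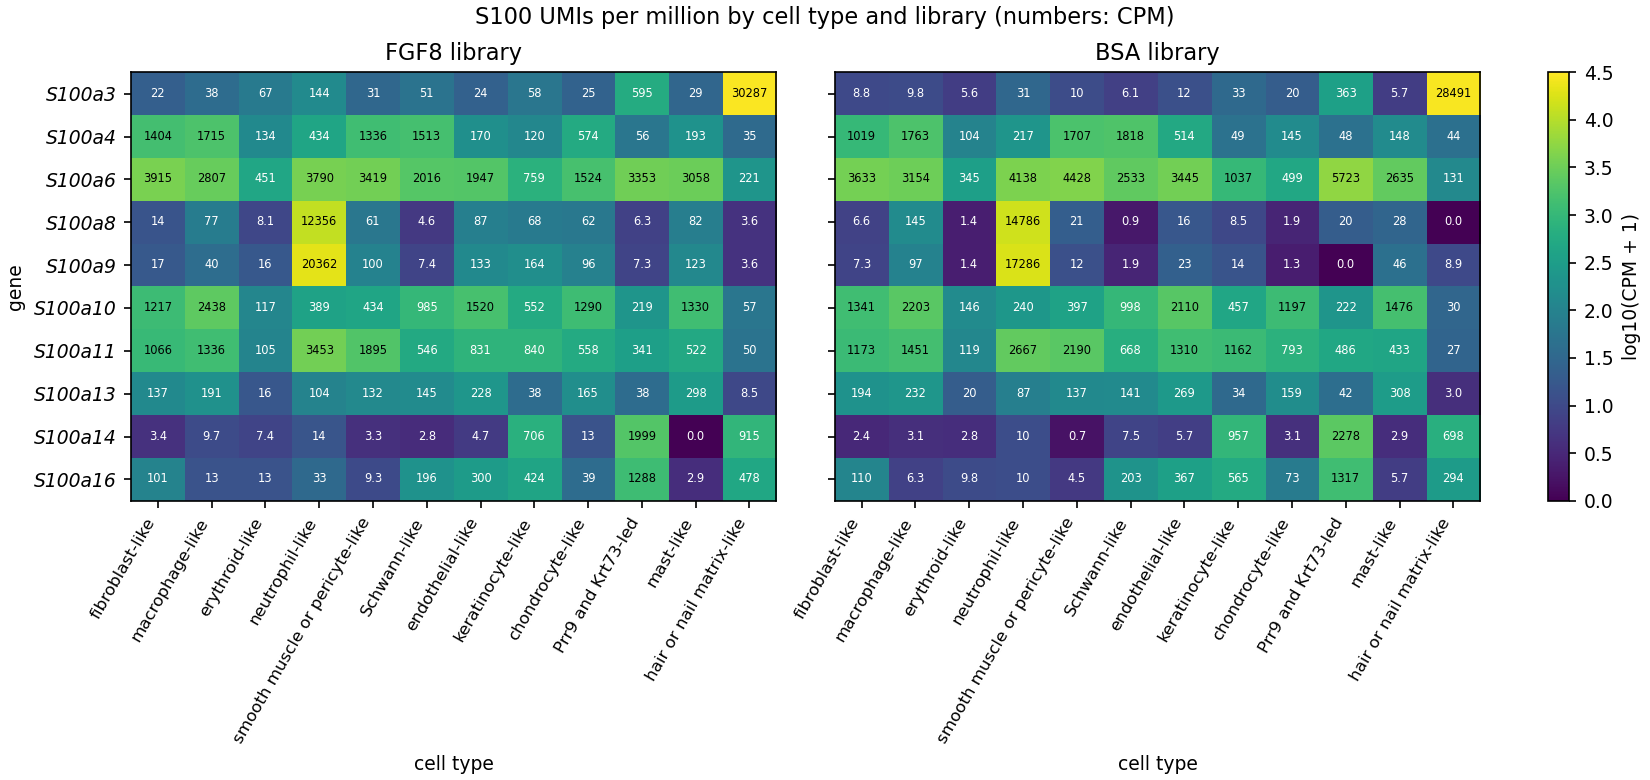
Level of each of the 10 members (rows) in each of the 12 cell types (columns), with 1 panel per library. The colour is log10(CPM + 1) and the printed numbers are CPM. *S100a3* is far higher in the hair or nail matrix-like cells and *S100a8* and *S100a9* in the neutrophil-like cells than in any other type, whereas *S100a6* is high in most types.

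For 8 of the 10 members the type with the highest level was the same in both libraries. *S100a8*, *S100a9* and *S100a11* were highest in neutrophil-like cells, *S100a10* in macrophage-like cells, *S100a13* in mast-like cells, *S100a14* and *S100a16* in the *Prr9* and *Krt73*-led cells, and *S100a3* in hair or nail matrix-like cells. The exceptions were *S100a4*, highest in macrophage-like cells with FGF8 and in Schwann-like cells with BSA, and *S100a6*, highest in fibroblast-like cells with FGF8 and in *Prr9* and *Krt73*-led cells with BSA. The 2 top types of *S100a4* in the BSA library, Schwann-like (1818 CPM) and macrophage-like cells (1763 CPM), had overlapping counting intervals. So had the 2 top types of *S100a13*, mast-like (298 and 308 CPM) and endothelial-like cells (228 and 269 CPM), in either library. For *S100a10* the 2 top types overlapped in the BSA library, macrophage-like cells at 2203 CPM and endothelial-like cells at 2109.9 CPM, and under a stricter cell filter the endothelial-like cells were highest there.

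The 5 widely expressed members differed in where they were low. *S100a6* reached 3058 CPM with FGF8 and 2635 CPM with BSA in mast-like cells, 3419 and 4428 CPM in smooth muscle or pericyte-like cells and 2016 and 2533 CPM in Schwann-like cells, and was lowest in hair or nail matrix-like cells at 221 and 131 CPM. *S100a10* followed macrophage-like cells (2438 and 2203 CPM) with endothelial-like (1520.3 and 2109.9 CPM) and mast-like cells (1330.4 and 1476 CPM), and was much lower in smooth muscle or pericyte-like cells at 434 and 397 CPM. *S100a11*, the other annexin-binding member, was by contrast second highest in smooth muscle or pericyte-like cells, at 1895 and 2190.1 CPM. *S100a13* spanned a smaller range among non-epithelial nucleated cells, from 104 CPM in neutrophil-like to 298 CPM in mast-like cells with FGF8 and from 86.9 to 308 CPM with BSA. Its levels in Schwann-like (145 and 141 CPM) and smooth muscle or pericyte-like cells (132 and 137 CPM) had overlapping intervals in the BSA library. *S100a4* was low in epithelial cells, at 56.5 and 47.6 CPM in the *Prr9* and *Krt73*-led and 35.3 and 44.5 CPM in the matrix-like cells, whose intervals overlapped, and stood at 134 and 104 CPM in erythroid-like cells. All 5 were lowest in hair or nail matrix-like cells in both libraries.

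In fibroblast-like cells, 3 of the 10 members were at least 2-fold higher in CPM in the FGF8 library and none was at least 2-fold lower. Over all 14233 genes with at least 100 UMIs there, 3.28% were at least 2-fold higher and 2.24% at least 2-fold lower. The median log2 ratio, FGF8 over BSA, was 0.29 for the 10 members and -0.07 for all genes. The 3 members were *S100a3*, *S100a9* and *S100a8*, each of which had its highest level in another cell type, as described below. Of the members with a substantial level in fibroblast-like cells, *S100a4* had the largest positive ratio and *S100a13* the largest negative one.

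**Figure D2:**
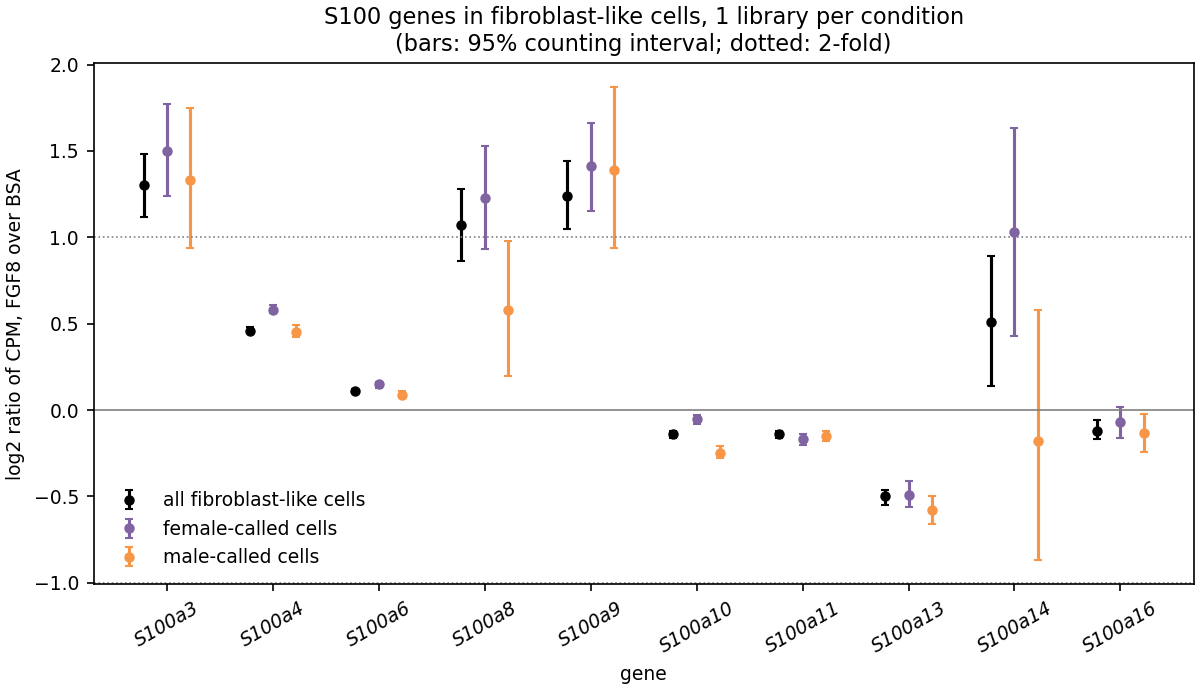
Log2 ratio of CPM, FGF8 over BSA, of each member in fibroblast-like cells, in all cells and within female-called and male-called cells, with 95% counting intervals as bars. *S100a3*, *S100a8* and *S100a9* lie past a ratio of 1 over all cells, *S100a4* lies at 0.46, and *S100a13* at -0.50 is the lowest.

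*S100a4* stood at 1404 CPM in FGF8 fibroblast-like cells and 1019 CPM in BSA fibroblast-like cells, a log2 ratio of 0.46 (0.45–0.48). A UMI of it was found in 86.0% and 74.9% of these cells, and in 63.9% and 48.9% after each cell was thinned to 2000 UMIs. Among female-called cells the ratio was 0.58, and among male-called cells 0.45. The fibroblast-like cells split into 6 subclusters between which *S100a4* differed more than between libraries. It was lowest in the subcluster led by *Nrg1*, *Tnfrsf19* and *Sema3a*, at 448 and 404 CPM, and highest in the one led by *Prg4*, *Spp1* and *Mmp3*, at 1748 and 1468 CPM. The *Prg4*-led subcluster contained 1201 FGF8 cells and 384 BSA cells, and with the subclusters weighted as in the BSA library the log2 ratio was 0.22. Within subclusters it ranged from -0.08 in the *Corin*-led to 0.49 in the subcluster of few UMIs.

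*S100a6* was high in nearly every cell type and close between libraries in fibroblast-like cells, at 3915 CPM with FGF8 and 3633 CPM with BSA, a log2 ratio of 0.11 (0.10–0.12). Across the subclusters it ran from 2149 to 4673 CPM with FGF8 and from 2402 to 4835 CPM with BSA. Both annexin-binding members were slightly lower with FGF8. *S100a10* stood at 1217 and 1341 CPM and *S100a11* at 1066 and 1173 CPM, each a log2 ratio of -0.14 (-0.16 to -0.12), and *S100a11* was lower in all 6 subclusters. *S100a13*, the FGF1-release gene, stood at 137 and 194 CPM, a log2 ratio of -0.50 (-0.55 to -0.46). It was lower with FGF8 in all 6 subclusters, by ratios of -0.66 to -0.20, and in cells of either sex (-0.49 for female and -0.58 for male cells). Both epithelial members were low in fibroblast-like cells. *S100a16* stood at 101 and 109.6 CPM and *S100a14* at 3.36 and 2.36 CPM, and the *S100a14* ratio of 0.51 had opposite signs in female-called (1.03) and male-called cells (-0.18).

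**Figure D3:**
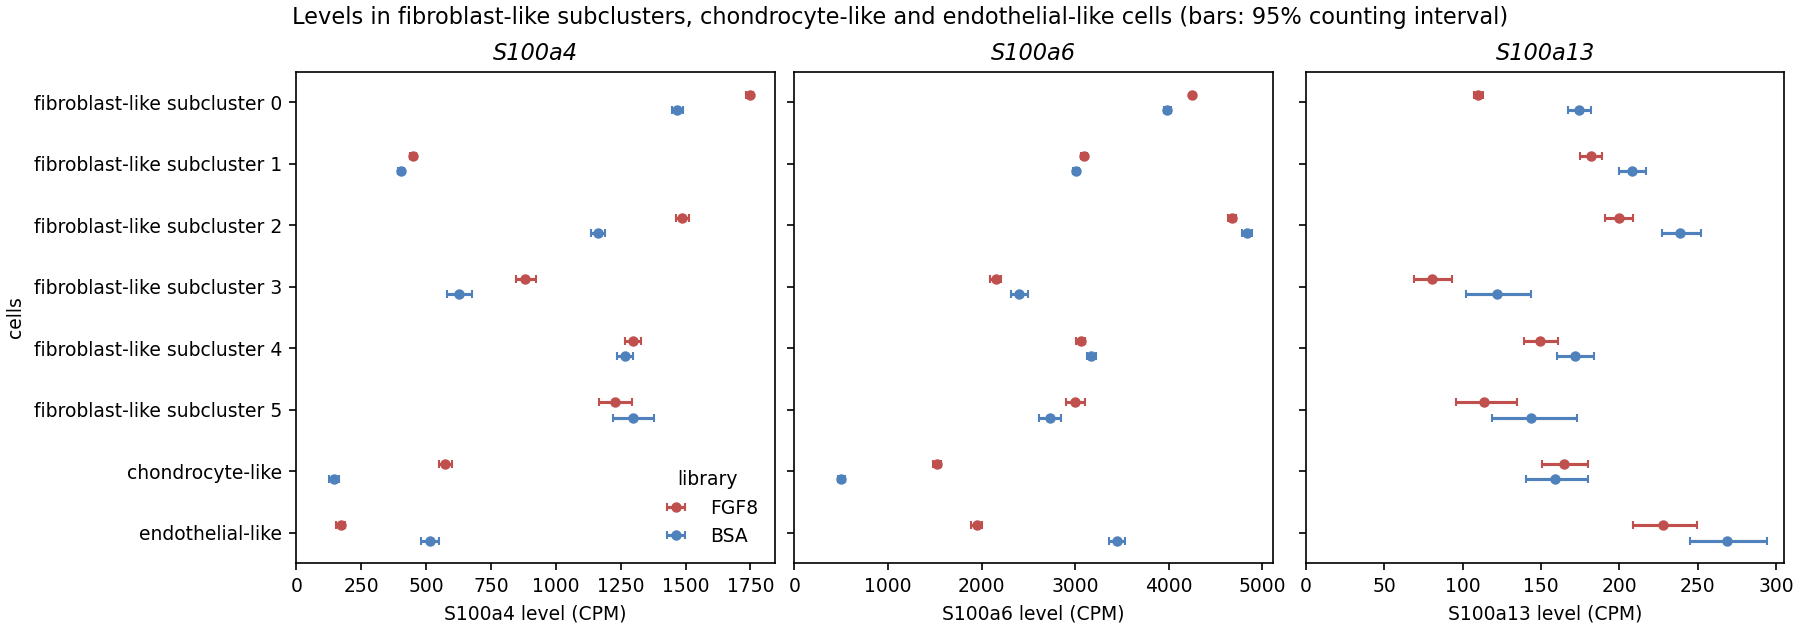
Levels of *S100a4*, *S100a6* and *S100a13* in CPM (horizontal axis, 1 panel per gene) in the 6 subclusters of fibroblast-like cells and in chondrocyte-like and endothelial-like cells of both libraries, with 95% counting intervals as bars. Subcluster 0 is the *Prg4*-led one and subcluster 1 the *Nrg1*-led one. *S100a4* is lowest in the *Nrg1*-led subcluster at 448 and 404 CPM, and *S100a13* is lower with FGF8 in every subcluster.

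Genes of known partners and receptors were read beside the members in fibroblast-like cells. *Cacybp*, which encodes the S100A6-binding calcyclin-binding protein, stood at 206 CPM with FGF8 and 114 CPM with BSA, a log2 ratio of 0.86, and *Myh9*, the nonmuscle myosin heavy chain bound by S100A4, at 157 and 113 CPM (0.48). The annexin genes differed little or were lower, with *Anxa2*, the S100A10 partner, at 1303 and 1305 CPM, *Anxa1*, an S100A11 partner, at 540.1 and 533 CPM, and *Anxa6* at 80.3 and 118 CPM (-0.55). *Ahnak*, a scaffold bound by the S100A10 and annexin A2 complex, stood at 587 and 725 CPM. *Fgf1* was near the floor of detection at 0.887 and 1.77 CPM. *Tlr4*, a receptor of calprotectin, stood at 8.41 and 10.5 CPM, and *Ager* had under 100 UMIs. All of these genes were within 2-fold between the libraries, *Fgf1* by the least.

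*S100a3* belonged to the hair or nail matrix-like cells, where it stood at 30287 CPM in the FGF8 library and 28491 CPM in the BSA library. These cells held 87.1% and 92.3% of all its UMIs, at a mean of 755 and 457 UMIs per cell. Among female-called matrix-like cells, 3 with FGF8 and 9 with BSA, the log2 ratio was -1.52. No matrix-like cell of the BSA library was called male, so no ratio could be given for male-called cells. The next type, the *Prr9* and *Krt73*-led cells, reached 595 and 363 CPM. In fibroblast-like cells *S100a3* stood at 21.6 and 8.80 CPM, a log2 ratio of 1.30 (1.12–1.48), and the ratio among male-called cells was 1.33. A UMI was present in 33.1% (31.5–34.7%) and 13.2% (11.7–14.9%) of fibroblast-like cells, and most positive cells (77.2% and 81.5%) held a single UMI.

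Similar shares appeared in blood cells, which are not known for *S100a3*. Erythroid-like cells had a UMI in 34.2% and 9.76% of cells, and neutrophil-like cells in 30.3% and 8.92%, at median depths of 6970 and 18542 UMIs and of 2396 and 3206 UMIs, against 18603 and 20071 UMIs in fibroblast-like cells. After thinning each cell to 2000 UMIs the shares were 5.54% and 2.09% in fibroblast-like, 11.9% and 3.95% in erythroid-like and 26.6% and 6.16% in neutrophil-like cells. Across the 10 types other than the matrix-like and *Prr9* and *Krt73*-led cells, the share ran from 15.9% to 35.8% with a median of 32.1% in the FGF8 library, and from 4.76% to 18.5% with a median of 11.4% in the BSA library. The shares in fibroblast-like cells lay within these ranges. They are not read as expression, nor is their difference, and whether they are background was not tested. The *S100a3* level in fibroblast-like cells was 0.0713% and 0.0309% of its matrix-like level. For 9 other genes of the matrix-like cells this percent ran from 0.0244% to 0.728% with FGF8 and from 0.0139% to 0.0707% with BSA. It was higher with FGF8 for the hair keratin genes *Krt35* (0.0365% and 0.0248%), *Krt31* (0.0282% and 0.0139%) and *Krt32* (0.0753% and 0.0360%), nearly equal for *Dsg4* (0.0244% and 0.0243%) and lower for *Hoxc13* (0.0507% and 0.0707%), and the part of free RNA in the *S100a3* difference was not tested. With the fibroblast-like cells that held a matrix marker (12.4% and 7.29%) left out, *S100a3* stood at 21.0 and 7.83 CPM. Its ratio was below 2-fold when clusters were made without integration (0.44) and as a mean of the CPM of each cell (0.90). Without integration no cells were typed as hair or nail matrix-like, and *S100a3* was highest in the fibroblast-like cells. The ratio of 0.44 is thus for a wider group of 3829 FGF8 and 2048 BSA cells.

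**Figure D4:**
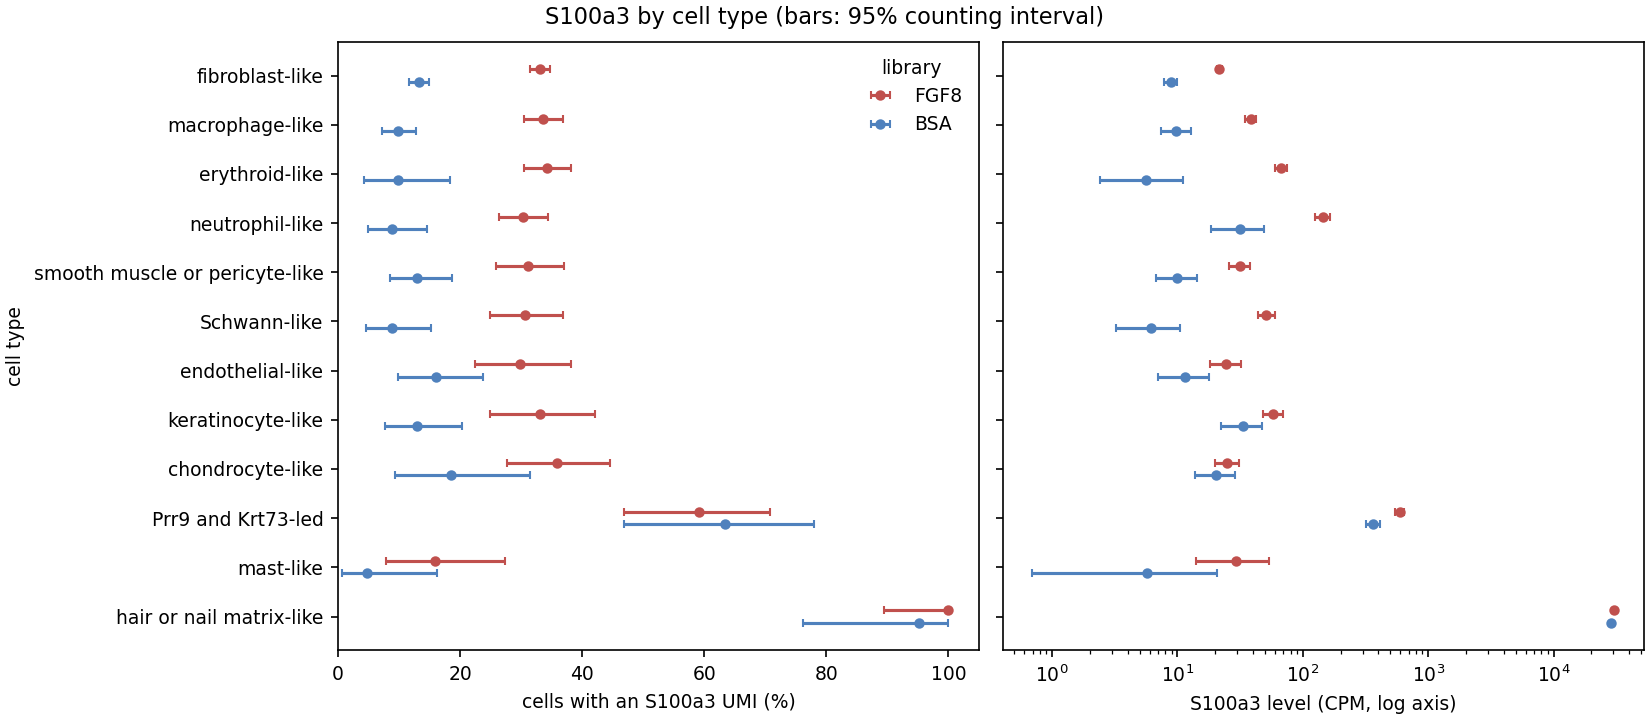
Percent of cells with a UMI of *S100a3* (left) and its CPM on a log axis (right) in each cell type and library, with 95% counting intervals as bars. Outside the matrix-like and *Prr9* and *Krt73*-led cells the FGF8 shares lie between 15.9% and 35.8% and the BSA shares between 4.76% and 18.5%.

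*S100a8* and *S100a9* belonged to the neutrophil-like cells, which held 87.8% and 87.5% of all *S100a8* UMIs and 90.8% and 91.3% of all *S100a9* UMIs. *S100a8* stood there at 12356 CPM with FGF8 and 14786 CPM with BSA, a log2 ratio of -0.26 (-0.30 to -0.22). *S100a9* stood at 20362 and 17286 CPM, a log2 ratio of 0.24 (0.20–0.27), but within each sex its ratio was 0.02, with an interval that included 0. The *S100a8* ratio was negative in both sexes, at -0.64 for female and -0.19 for male cells. Of the 531 FGF8 neutrophil-like cells 30 were called female and 199 male, and of the 157 BSA cells 26 and 20. The ratios within each sex leave out the many cells without a call. The number of *S100a8* UMIs per *S100a9* UMI was 0.607 with FGF8 and 0.855 with BSA. Nearly all neutrophil-like cells had a UMI of *S100a8* (96.0% and 94.9%) and of *S100a9* (95.1% and 92.4%).

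In neutrophil-like cells 8 members had at least 100 UMIs, and 2 of these were at least 2-fold higher with FGF8, where 7.84% of 3278 genes were at least 2-fold higher and 2.50% at least 2-fold lower. One was *S100a3*, at 144 and 31.3 CPM, with the shares of cells described above. It had 230 and 18 UMIs, so it reached 100 UMIs only through the FGF8 library. The other was *S100a4*, at 434 and 217 CPM, a log2 ratio of 1.00 (0.72–1.29) that was 1.63 among female-called but -0.71 among male-called cells. The ratios within each sex rested on few BSA cells, 26 called female and 20 called male. At a minimum of 10 UMIs *S100a16* was a further member, with 59 UMIs and 33.1 and 10.4 CPM. *S100a11* stood at 3453 and 2667 CPM, its highest level of any type in both libraries, and *S100a10* at 389 and 239.7 CPM, with ratios of 1.68 for female and -0.48 for male cells.

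Outside the neutrophil-like cells the calprotectin genes lay in few cells. In fibroblast-like cells *S100a8* stood at 13.9 and 6.64 CPM, a log2 ratio of 1.07 (0.86–1.28) that was 0.58 among male-called cells, and *S100a9* at 17.2 and 7.28 CPM, a ratio of 1.24 (1.05–1.44). A UMI of *S100a8* was found in 10.0% and 4.78% of these cells, beside 4.58% and 2.44% of the erythroid-like cells. The 1% of fibroblast-like cells with the most UMIs of each gene held 66.8% and 72.9% of the *S100a8* UMIs and 73.8% and 83.0% of the *S100a9* UMIs. Cells with a neutrophil marker were 20.6% and 14.9% of the fibroblast-like cells and held 72.6% and 70.8% of the *S100a8* UMIs. With cells that held a matrix marker left out, the ratio of *S100a8* was 0.95. Without the cells with a neutrophil marker *S100a8* stood at 5.15 and 2.40 CPM and *S100a9* at 4.78 and 1.71 CPM. Neutrophil markers were also higher with FGF8, the list of 13 summing to 23.4 CPM with FGF8 (11 detected, *Ly6g* and *Elane* at 0) and 13.1 CPM with BSA (10 detected, *Ly6g*, *Mmp8* and *Elane* at 0), and their part in the difference was not tested. In the *Prg4*-led subcluster the direction was the opposite, with *S100a8* at 8.13 and 13.2 CPM and *S100a9* at 11.1 and 18.2 CPM. These BSA levels rested on few cells, since 4 of the 384 held 88.8% of the *S100a8* and 91.4% of the *S100a9* UMIs. Without cells that held a neutrophil marker, both genes stood there at 3.92 CPM with FGF8 and 1.33 CPM with BSA.

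**Figure D5:**
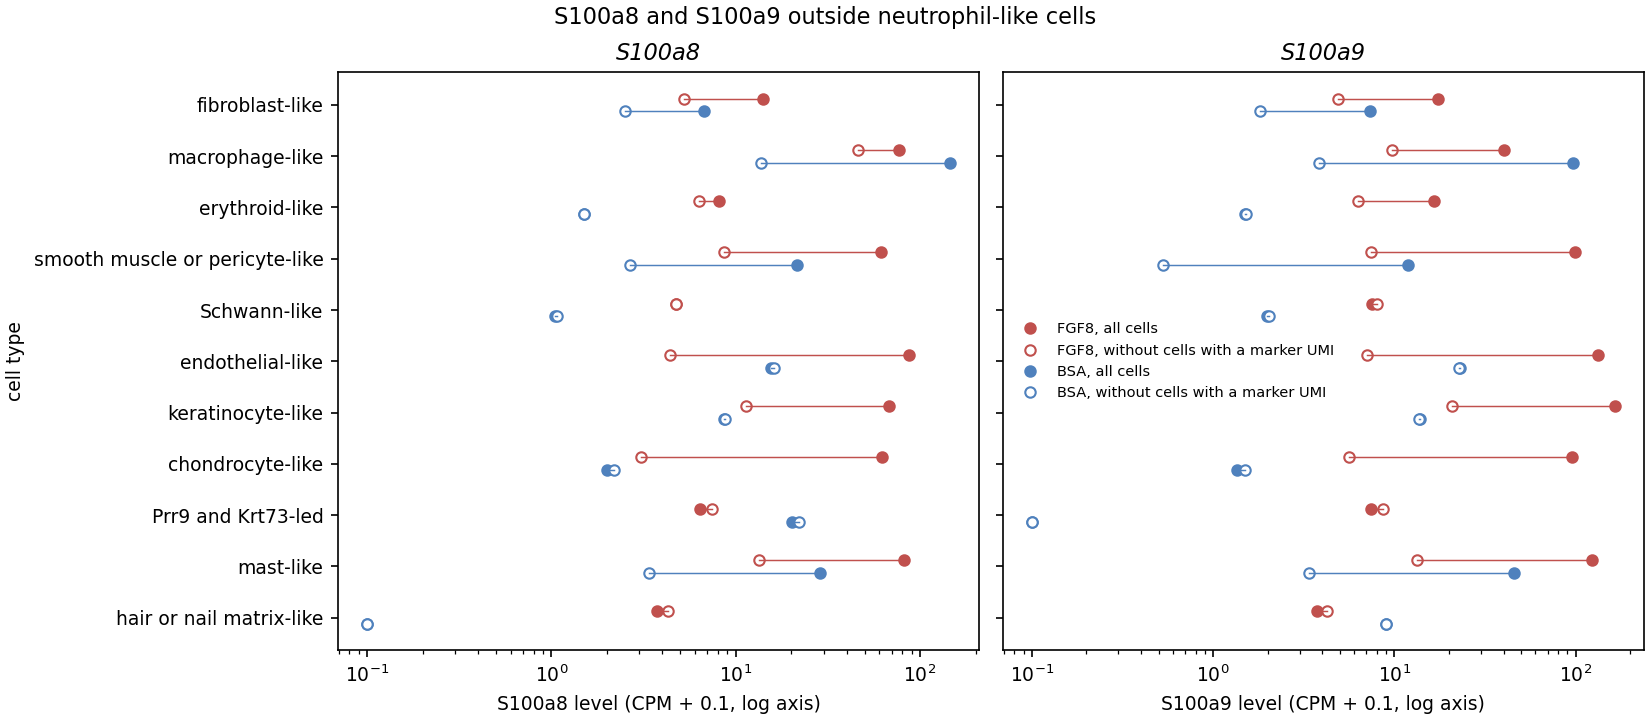
*S100a8* and *S100a9* outside the neutrophil-like cells, as CPM + 0.1 on a log axis in each other cell type and library. Filled points are all cells, and open points the cells without a UMI of a neutrophil marker. Most types lie higher with FGF8, whereas macrophage-like cells lie lower, at 77.2 against 145 CPM for *S100a8* and 40.2 against 97.0 CPM for *S100a9*.

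In macrophage-like cells 3 of the 10 members were at least 2-fold higher with FGF8 and 1 was at least 2-fold lower, where 2.25% of 9901 genes were higher and 0.939% lower by that much. The higher members were *S100a3* (38.3 and 9.78 CPM), *S100a14* (9.66 and 3.09 CPM) and *S100a16* (13.2 and 6.35 CPM), each with its highest level in epithelial cells. The BSA library held only 57, 18 and 37 UMIs of them, so they reached 100 UMIs mainly through the FGF8 library. The ratio of *S100a14* was below 2-fold among female-called cells (0.71), and that of *S100a16* among male-called cells (0.56). The lower member was *S100a9*, at 40.2 and 97.0 CPM, a log2 ratio of -1.27 (-1.46 to -1.08), and *S100a8* stood at 77.2 and 145 CPM (-0.91). These BSA levels rested on few cells, since 5 of the 470 held 82.1% of the *S100a8* and 92.6% of the *S100a9* UMIs. Cells with a neutrophil marker were 30.1% and 35.3% of the macrophage-like cells. With these left out, the direction turned, to 46.1 and 13.6 CPM for *S100a8* and 9.61 and 3.76 CPM for *S100a9*. The monocyte markers *Ly6c2* (183 and 387 CPM) and *Plac8* (474 and 766 CPM) were also lower with FGF8 in macrophage-like cells. Their part in the differences was not tested. Among female-called cells the *S100a9* ratio was 0.61, and among male-called cells -3.06. The members with high levels in these cells were close between libraries, with *S100a4* at 1715 and 1763 CPM, *S100a6* at 2807 and 3154 CPM, *S100a10* at 2438 and 2203 CPM and *S100a11* at 1336 and 1451 CPM.

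In the 134 FGF8 and 54 BSA chondrocyte-like cells, all of which had a UMI of the cartilage collagen gene *Col2a1*, 4 of the 9 members with at least 100 UMIs were at least 2-fold higher with FGF8, where 4.81% of 5550 genes were. Among the 4, *S100a8* (196 and 3 UMIs) and *S100a9* (303 and 2 UMIs) reached 100 UMIs only through the FGF8 library. The count of 4 is therefore not read as an excess over that share. *S100a4* stood at 574 CPM with FGF8 and 145 CPM with BSA, a log2 ratio of 1.99 (1.79–2.19), and was found in 82.8% (75.4–88.8%) and 37.0% (24.3–51.3%) of cells. After thinning to 2000 UMIs the FGF8 share was 41.0% (32.6–49.9%), above the interval of the BSA share (5.37–24.9%). *S100a6* stood at 1524 and 499 CPM, a log2 ratio of 1.61. The ratio of *S100a4* was 3.01 in female-called cells and 5.68 in male-called cells, where the BSA library had 2 UMIs. Both were above the ratio over all cells. Of the 54 BSA cells 39 were called female and 11 male, and how far the BSA level rests on the others was not tested. Fibroblast markers were lower with FGF8, their list summing to 3994 CPM with FGF8 and 8744 CPM with BSA. Macrophage markers summed to 136 and 11.3 CPM, and their part in the *S100a4* difference was not tested. The cells were also split at the median of their summed *Col1a1*, *Col1a2*, *Col3a1*, *Dcn* and *Lum*, a choice made after seeing the data. In the cells under that median the ratio of *S100a4* was 5.35 (629 and 15.4 CPM) and that of *S100a6* was 2.89. In the cells at or over it they were 0.81 (509.9 and 292 CPM) and 0.68, both below 2-fold.

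*S100a8* and *S100a9* were the other members past 2-fold in chondrocyte-like cells, at 62.0 and 95.9 CPM with FGF8 beside 3 and 2 UMIs in the whole BSA type. In the FGF8 library 2 cells held 76.5% and 71.9% of these UMIs, and without cells that held a neutrophil marker the levels were 2.95 and 5.53 CPM. *S100a10* was close between libraries, at 1289.6 and 1197 CPM, as was *S100a13* at 165 and 159 CPM, while *S100a11* stood at 558 and 793 CPM (-0.51, with -0.66 for female and 0.24 for male cells). *S100a1* and *S100b*, S100 genes of cartilage outside the 10 members, stood at 272 and 287 CPM and at 125 and 75.6 CPM.

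In endothelial-like cells *S100a4* was lower with FGF8, at 170.1 and 514 CPM, a log2 ratio of -1.60 that was -1.62 among female-called but -0.75, below 2-fold, among male-called cells. These cells came from 2 clusters in unequal numbers. In the first, with 129 and 73 cells, *S100a4* stood at 170.0 and 305 CPM, a ratio of -0.84, and in the second, led by lymphatic genes, with 12 and 46 cells, it stood at 171 and 817 CPM, a ratio of -2.26. *S100a6* was close in the first cluster, at 2008 and 2075 CPM, and lower with FGF8 in the second, at 1437 and 5428 CPM. In keratinocyte-like cells *S100a4* stood at 120.5 and 49.0 CPM, a log2 ratio whose sign differed between sexes, at -2.53 for female and 2.92 for male cells with 28 and 3 UMIs in the BSA library. In smooth muscle or pericyte-like cells it stood at 1336 and 1707 CPM and in Schwann-like cells at 1513 and 1818 CPM.

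*S100a14* and *S100a16* had their highest levels in epithelial cells. *S100a14* stood at 1999 and 2278 CPM in the *Prr9* and *Krt73*-led cells, at 915 and 698 CPM in hair or nail matrix-like cells and at 706 and 957 CPM in keratinocyte-like cells, and was found in 97.2% and 95.1% of the first and 85.5% and 72.4% of the last. The *Prr9* and *Krt73*-led cells alone held 40.2% and 54.1% of all its UMIs. Most UMIs of *S100a16* lay instead in the numerous fibroblast-like cells, with 61.8% and 57.4%. In level *S100a16* followed the same order as *S100a14* in the FGF8 library, at 1288, 478 and 424 CPM, but also reached 299.8 and 367 CPM in endothelial-like cells (a ratio of -0.55 for female and 0.27 for male cells) and 196 and 203 CPM in Schwann-like cells, where *S100a14* was low.

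The genes most like each member in log2(CPM + 1) were found across the 12 types in both libraries (24 points that share libraries and depth). For *S100a3*, *S100a8*, *S100a9* and *S100a14* they were genes of hair matrix, neutrophil or epithelial cells. For the others no such link is read. *S100a3* was most like *Psors1c2* (r = 0.96) and the hair desmosome gene *Dsg4* (0.96). *S100a8* was most like *Cstdc4* (0.96) and *Csf3r* (0.95), and *S100a9* was most like *Cstdc4* (0.98) and *Stfa2l1* (0.96). *S100a14* was most like the desmosome gene *Dsp* (0.99), and *S100a16* was most like the gap junction gene *Gja1* (0.95). *S100a10* was most like *Capn2* (0.96) and next like *S100a13* (0.93), a member of the other block, and *S100a13* was most like *Ywhah* (0.97). *S100a4* was most like *Cdk14* (0.91), *S100a6* like *Ttc7b* (0.90) and *S100a11* like *Ccdc126* (0.93). Among members next to each other on the chromosome, *S100a8* and *S100a9* correlated at 0.93, *S100a14* and *S100a16* at 0.75, *S100a3* and *S100a16* at 0.48 and *S100a3* and *S100a4* at -0.59. The other neighbours were *S100a10* and *S100a11* at 0.66, *S100a4* and *S100a6* at 0.56, *S100a6* and *S100a8* at 0.51 and *S100a13* and *S100a14* at -0.69.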

How the data were processed

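Single cells of 2 libraries, 1 per treatment, were captured by the authors with 10x 3′ v3.1 chemistry. The deposited files hold raw counts of UMIs for each gene and barcode, made by the authors with Cell Ranger 9.0.0 on GRCm39 and not normalized. A 3′ count does not scale with gene length, so levels are compared between cells and not between genes. Kept cells had over 200 and under 7500 genes with less than 15% mitochondrial UMIs, and were clustered as the study's methods describe (Seurat 5.3.0, sctransform 0.4.2, R 4.3.3, CCA, 30 components, resolution 0.05, seed 42), but without S100 genes among the features. A second clustering at 0.2 split the fibroblast-like cells and the clusters left unnamed. For the fibroblast-like cells its features also left out X- and Y-linked genes and the genes the study listed as higher or lower in FGF8 fibroblasts. Counts were summed per library and type with Python 3.11.15, numpy 2.4.6, scipy 1.17.1 and pandas 2.3.3, scaled to CPM, and compared as log2 ratios with exact conditional 95% intervals for counting error. Shares have exact binomial (Clopper-Pearson) intervals. No test was possible with 1 library per treatment. Genes compared had at least 100 UMIs in a type, members at least 10 where said, and 2-fold was the size named. Cells were placed by marker lists of the design, and the naming rules and 2 endothelial-like clusters were set with the data in view. The named genes were the 10 members, other S100 genes, 14 partners and receptors, and for each member the 3 genes most like it. The members and lists were chosen with earlier results of these data known. Ratios and thinning were tested on simulated data. Figures were drawn with matplotlib 3.10.9.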

Additional observations from a re-analysis of the deposited data

Results flagged for a closer look

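The log2 ratios of 2 members, FGF8 over BSA, had opposite signs in different cell types, each past 2-fold, and the difference between types was not tested because each treatment is 1 library. *S100a4* had a ratio of 1.99 in chondrocyte-like cells and -1.60 in endothelial-like cells. The first was 0.81 in the chondrocyte-like cells with fibroblast markers at or over the median, and the second was -0.84 in the larger of the 2 endothelial-like clusters and -0.75 among male-called cells, so in each of these groups of cells the ratio was below 2-fold. *S100a9* had a ratio of 6.25 in chondrocyte-like cells, where the BSA library held 2 UMIs, and -1.27 in macrophage-like cells, where 5 BSA cells held 92.6% of its UMIs.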

How the results depend on the processing

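Each result was recomputed under 14 alternatives and 5 more that were chosen after seeing the data (cells with a hair or nail matrix marker left out, the subcluster of few UMIs left out, subclusters weighted as in the BSA library, at least 100 UMIs, and types under 50 cells left out), as far as each applied. The number of members past 2-fold in fibroblast-like cells, 3, ranged from 2 to 4. In macrophage-like cells it was 4, and became 2 with the stricter cell filter, 2 in female-called cells alone and 2 with the mean of the CPM of each cell. In neutrophil-like cells it was 3, and became 1 in male-called cells alone and 0 with cells thinned to 5000 UMIs, which left 7 members to compare. The members themselves changed too. In macrophage-like cells without a neutrophil marker they were *S100a3*, *S100a8* and *S100a9*, all higher. With the highest doublet scores left out, *S100a3* alone was higher there. In neutrophil-like cells *S100a4* was below 2-fold with that step or the stricter cell filter, but not at resolution 0.2. The number of members with the same highest type in both libraries, 8, ranged from 7 to 9, but the types themselves were as reported for 11 to 19 of 20 pairs of member and library. At resolution 0.2, without integration or with S100 genes kept, no cells were typed as matrix-like or as *Prr9* and *Krt73*-led. The reported top types of *S100a3*, *S100a14* and *S100a16* could therefore not recur there. The fibroblast-like ratio of *S100a3* was 0.44 in clusters without integration, where no cells were typed as matrix-like and the fibroblast-like group was wider. It was 0.90 as a mean of the CPM of each cell. The ratio of *S100a8* ranged from 0.58 to 2.31, that of *S100a9* from 1.03 to 3.69 and that of *S100a13* from -0.58 to -0.25. Where not said, the cause was not tested. Scrublet (scanpy 1.11.5) called 0 doublets at its own threshold in either library and so had not worked. The 389 FGF8 and 96 BSA cells with the highest scores (5.80% and 2.96%, an assumed rate) were left out only as an alternative. No paired analysis was possible because each treatment has 1 library. Depth limits members with few UMIs, such as *S100a14* in fibroblast-like cells.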

Other observations

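Other S100 genes of the files, outside the 10 members, were mostly low. *S100b*, a gene of glial cells, stood at 111 CPM in FGF8 and 145 CPM in BSA Schwann-like cells, and in fibroblast-like cells at 5.56 and 9.98 CPM, a log2 ratio of -0.84. *S100a1* stood at 77.9 and 90.8 CPM in macrophage-like cells and at 20.6 and 27.2 CPM in fibroblast-like cells, and it overlaps *S100a13*. *S100a7a* stood at 36.6 and 95.2 CPM in the *Prr9* and *Krt73*-led cells. Of the partner genes, *Cacybp* was also higher with FGF8 outside the fibroblast-like cells, at 166 and 119 CPM in macrophage-like cells (a log2 ratio of 0.47) and at 81.9 and 33.0 CPM in neutrophil-like cells (1.31). *Tlr4* stood at 312 and 238 CPM in neutrophil-like cells.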
